A study of Bos indicus x Bos taurus with 78 samples.

Results

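The microRNAs miR-148a, miR-148b and miR-152 form a family defined by a common seed, the stretch near the 5′ end of a mature miRNA that pairs with its target mRNAs. They are 3 of the 1030 miRNA rows of the count table (bta-miR-148a, bta-miR-148b and bta-miR-152), and all 3 passed the filter on low counts in every comparison. The set was chosen with results of these data known: miR-148a was picked because it was lower with a higher degree of dark-cutting, and miR-148b and miR-152 were added as its seed relatives. For miR-148a the differences between phenotypes and across degrees are therefore given as a description, with standard errors and no test. The question put to the data was whether the relatives follow miR-148a. Their values are not independent of its choice, since both varied with miR-148a among the normal steers (Pearson r = 0.71 for miR-148b and 0.55 for miR-152).

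A miRNA guides the RNA-induced silencing complex to mRNAs that match its seed, so members of a seed family can share many targets while being transcribed from separate genes. In human cells the family is known to repress the maintenance DNA methyltransferase DNMT1, and miR-148a the low-density lipoprotein receptor in liver. In mouse myoblasts miR-148a is known to promote differentiation into myotubes, with the kinase ROCK1 as a target. In human, miR-148b lies in an intron of COPZ1 and miR-152 in an intron of COPZ2, both coatomer subunit genes.

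Small RNA was sequenced from 1 Longissimus lumborum biopsy, a loin muscle, of each of 78 male Bos indicus x Bos taurus cattle, referred to here as steers. Dark-cutting is a defect in which meat stays dark and dry, known from animals whose muscle holds little glycogen when they are slaughtered. The labels class 25 steers as dark-cutting, with a fraction for the degree, and 53 as normal: degree 1/4 has 8 steers, degree 1/3 has 9, degree 1/2 has 3, degree 2/3 has 4 and degree 3/4 has 1. Age, diet and the share of each breed are not given in the labels, and they name no treatment.

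Total counts ran from 1427817 to 4535675 per library, with a median of 3209320, and medians were 3187710 in dark-cutting and 3211620 in normal steers. The muscle-fibre miRNA list (5 of 5 counted) held 835619 to 899567 CPM (counts scaled to a common library total) in dark-cutting steers and 761655 to 901937 in normal steers, nearly all of it miR-1. Liver miR-122 reached at most 0.627 CPM in dark-cutting and 1.15 CPM in normal steers, and the epithelial list, with 1 of its 5 members at 0, at most 2.62 and 1.86 CPM. Title numbers, which are no labelled batch, split the steers below 600 (8 dark-cutting, 18 normal) and from 600 up (17 dark-cutting, 35 normal). Because miR-1 takes most counts, levels below are CPM after TMM scaling, a correction for the make-up of each library, and log2 CPM adds a prior count of 2.

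All 3 miRNAs were counted in every steer. miR-148a had 679 to 3349 counts per library with a median of 1380.5, miR-148b had 132 to 533 with a median of 302, and miR-152 had 141 to 760 with a median of 294. In abundance they stood 42nd, 88th and 84th among the 272 miRNAs tested over the degrees. At the median count, counting error alone gave a coefficient of variation of 2.69% for miR-148a, 5.75% for miR-148b and 5.83% for miR-152. The variation between steers that edgeR estimated beyond counting was 21.4%, 19.7% and 21.3%, against a median of 28.1% over the 272 miRNAs, and was larger than the counting error for each of the 3. Rows of the table for miR-148c and miR-148d had no count in any library, which allows up to 0.0119 CPM over all libraries (3 counts, counting error only).

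As a group the family took 0.0602% ± 0.0087 of the counts in dark-cutting steers and 0.0652% ± 0.0186 in normal steers (SD, n = 25 and 53). Within it, miR-148a made up 68.4% ± 2.9 in dark-cutting and 69.9% ± 2.8 in normal steers. miR-148b made up 15.5% ± 2.3 in dark-cutting and 14.8% ± 1.9 in normal steers, and miR-152 made up 16.1% ± 2.4 and 15.3% ± 2.6. The make-up of the family was thus nearly alike in both phenotypes, with shares that overlapped over most of their range. These are shares of reads, and how well each miRNA is captured by the library kit is not known here.

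miR-148a averaged 394 ± 82.9 CPM in dark-cutting steers and 463 ± 105 CPM in normal steers (SD, n = 25 and 53). Dark-cutting steers ran from 254 CPM through a median of 379 to 600, and normal steers from 309 through 438 to 787. The ranges overlapped from 309 to 600 CPM, with only dark-cutting steers under that stretch and only normal steers over it. The lowest level was in a dark-cutting steer of degree 1/4 and the highest in a normal steer. In edgeR's fit over all 252 miRNAs, the log2 fold change was -0.23 ± 0.07 (SE), which is 0.854-fold. It is the value for which the miRNA was chosen, so nothing is tested with it.

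miR-148b, the relative with the closest mature sequence to miR-148a, averaged 88.3 ± 19.2 CPM in dark-cutting steers and 96.9 ± 19.5 CPM in normal steers. Its lowest, median and highest levels were 62.7, 84.5 and 158 CPM in dark-cutting steers and 59.9, 95.9 and 150 CPM in normal steers. Both ends of the range overlapped, and the highest level of all 78 steers belonged to a dark-cutting one of degree 1/4. The log2 fold change was -0.13 ± 0.07 (95% interval -0.27 to 0.0045), with an unadjusted p of 0.0579 and an adjusted p of 0.416 in edgeR's quasi-likelihood test.

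miR-152 averaged 90.7 ± 15.2 CPM in dark-cutting steers and 100.3 ± 24.9 CPM in normal steers. The dark-cutting steers ran from 69.5 CPM through 87.3 to 125, inside the range of the normal steers, which ran from 59.7 CPM through 92.7 to 179. Its log2 fold change was -0.14 ± 0.07 (95% interval -0.28 to 0.0082), with an unadjusted p of 0.064 and an adjusted p of 0.416 in the same test. Neither relative passed the adjusted threshold of 0.05, nor an unadjusted 0.05, and neither did with DESeq2 (adjusted p = 0.422 for both) or limma-voom (adjusted p = 0.389 and 0.478). The background was the same: 0 of 252 miRNAs (0%) were called in this comparison by any of these tools, 23 (9.13%) had an unadjusted p under 0.05 in edgeR, and 54% had a fold change below 0. The authors' deposited table gave log2 fold changes of -0.22 for miR-148a, -0.13 for miR-148b and -0.13 for miR-152, with an adjusted p of 0.605 for both relatives.

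Counted by steer, 19 of 25 dark-cutting steers lay under the normal median for miR-148b and 18 of 25 for miR-152, as did 18 of 25 for miR-148a, whose count repeats the choice. Over the 272 miRNAs the median was 12 of 25, and 11 had as many steers under it as miR-148b or more, 23 as many as miR-152. All 3 miRNAs were under their normal medians together in 12 of 25 dark-cutting and 11 of 53 normal steers. None of the 3 was under it in 1 of 25 dark-cutting and 13 of 53 normal steers. These counts describe the steers and were not tested, since miR-148a enters them. Those of the relatives alone are not independent of the choice of miR-148a either, as their levels varied with it.

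Across the degrees, mean log2 CPM of miR-148a was 8.82 in normal steers, 8.67 at degree 1/4, 8.59 at 1/3, 8.61 at 1/2, 8.56 at 2/3 and 8.14 in the steer of degree 3/4. The SD within groups was 0.31, larger than the step between any neighbours in this order except the last, which rests on 1 steer. In CPM, degree 1/4 ran from 254 through a median of 423 to 600, and degree 1/3 from 297 through 379 to 476. The 3 steers of degree 1/2 had 373, 331 and 483 CPM, the 4 of degree 2/3 had 390, 433, 316 and 374 CPM, and the one of degree 3/4 had 281 CPM. All steers of degrees 2/3 and 3/4 were under the normal median of 438 CPM, and the lowest level of all belonged to degree 1/4.

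For miR-148b the mean log2 CPM was 6.58 in normal steers, 6.59 at degree 1/4, 6.40 at 1/3, 6.44 at 1/2, 6.37 at 2/3 and 6.10 in the steer of degree 3/4. Degree 1/4 ran from 75.6 CPM through 87.6 to 158 and degree 1/3 from 68.7 through 83.0 to 101. Single steers of degree 1/2 had 74.9, 93.3 and 91.2 CPM, those of degree 2/3 had 70.9, 112, 62.7 and 90.7 CPM, and that of degree 3/4 had 67.96 CPM. Degree 1/4 was level with the normal steers and the higher degrees were under them, with each step smaller than the SD within groups of 0.28. The steer of degree 3/4 was within the range of those of degree 2/3.

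For miR-152 the order was less regular, at a mean log2 CPM of 6.62 in normal steers, 6.47 at degree 1/4, 6.53 at 1/3, 6.60 at 1/2, 6.47 at 2/3 and 6.13 in the steer of degree 3/4. Degree 1/4 ran from 71.3 CPM through 86.2 to 125 and degree 1/3 from 74.02 through 90.5 to 116. The steers of degree 1/2 had 101, 72.4 and 121 CPM, those of degree 2/3 had 90.8, 81.3, 90.3 and 91.0 CPM, and that of degree 3/4 had 69.5 CPM, the lowest of the 25 dark-cutting steers. No pair of neighbouring groups with more than 1 steer differed by more than the SD within groups of 0.30.

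**Figure D1:**
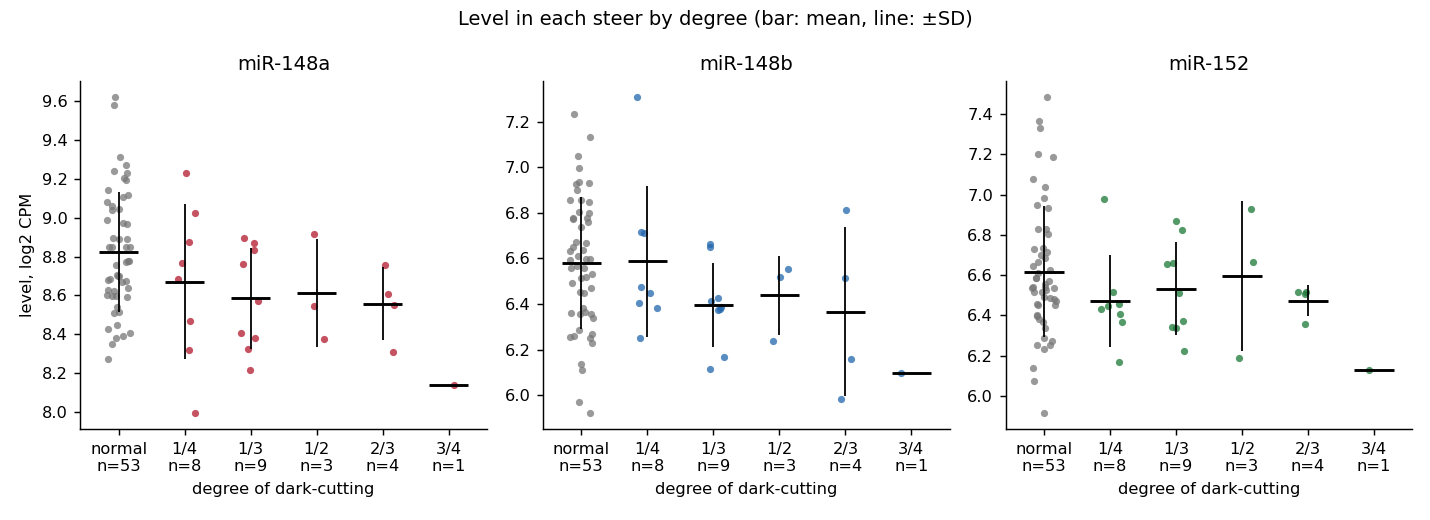
Level of miR-148a, miR-148b and miR-152 (y axis, log2 CPM, a scale of its own in each panel) in each of the 78 steers (points) by degree of dark-cutting (x axis), with the mean (thick bar) and SD (thin line) per group. The groups overlap throughout, and the steer of degree 3/4 lies at 8.14, 6.10 and 6.13, toward the lower end of the other steers in each panel.

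With 1 term per degree in a fit of all 78 steers, miR-148a had log2 fold changes against normal of -0.14 ± 0.12 at degree 1/4, -0.25 ± 0.11 at 1/3, -0.23 ± 0.19 at 1/2 and -0.29 ± 0.16 at 2/3 (SE). miR-148b had 0.02 ± 0.11, -0.20 ± 0.11, -0.17 ± 0.18 and -0.21 ± 0.16 at the same degrees, with edgeR adjusted p of 0.998, 0.591, 0.994 and 0.988. miR-152 had -0.17 ± 0.12, -0.11 ± 0.11, -0.03 ± 0.19 and -0.18 ± 0.17, with edgeR adjusted p of 0.998, 0.852, 0.994 and 0.988. Of the 8 values of the relatives, 7 were below 0 and 0 passed the adjusted or an unadjusted 0.05. Of the 272 miRNAs, 51.8% at degree 1/4, 53.3% at 1/3, 50.4% at 1/2 and 66.9% at 2/3 had a value below 0. Calls were 0% at degrees 1/4, 1/3 and 1/2 and 0.368% at 2/3, and the shares with an unadjusted p under 0.05 were 1.1%, 9.19%, 4.78% and 2.57%. DESeq2 and limma-voom called neither relative at any degree. These comparisons share the 53 normal steers, so their like signs are not independent of each other. Degree 3/4, with 1 steer, has no test.

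Several of these values moved when 1 steer was left out and the rest were filtered and scaled anew. At degree 1/4, that of miR-148b was -0.12 without replicate 4, at 158 CPM, in place of 0.02, and that of miR-148a ran from -0.23 without replicate 4 to -0.05 without replicate 1, while that of miR-152 was -0.26 without replicate 3. At degree 1/3, that of miR-152 was -0.07 without replicate 7. At degree 1/2, that of miR-148a ran from -0.39 without replicate 3 to -0.13 without replicate 2, and that of miR-148b was -0.07 without replicate 1. At degree 2/3, that of miR-148a was -0.15 and that of miR-148b -0.03 without replicate 3, and miR-148b was at -0.38 without replicate 2. There miR-152 was at -0.09 in place of -0.18 without normal replicate 33, which is 1 of 53 normal steers and had 122 CPM. The parts of the new scaling and of a steer's own level in these shifts were not tested. That of miR-152 at degree 1/2 was -0.21 without replicate 3, 0.13 without replicate 2, at 72.4 CPM, and also 0.13 with scaling by total count alone, which gave 0.03 in place of -0.11 at degree 1/3.

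The slope on degree, with normal steers at 0 and the labelled fraction as the degree, sums this up per full unit of degree. It was -0.57 ± 0.17 for miR-148a (log2, SE), 23rd from the lowest of 272. For miR-148b it was -0.39 ± 0.16 (95% interval -0.71 to -0.07), 45th from the lowest, with an unadjusted p of 0.018 and an edgeR adjusted p of 0.322. For miR-152 it was -0.33 ± 0.17 (95% interval -0.67 to 0.01), 58th from the lowest, with an unadjusted p of 0.060 and an edgeR adjusted p of 0.436. Both relatives had slopes of the sign of miR-148a and of a smaller size, and 0 of the 2 passed the adjusted threshold. As their levels varied with that of miR-148a in the same libraries, these slopes are not independent of its choice. The background was 1 of 272 called (0.368%), which was higher with degree. Unadjusted, 1 of the 2 relatives was under 0.05, against 11% of the 272, 8.46% with a slope below 0 and the rest above it. Over all 272, 55.5% had a slope below 0. DESeq2 gave the relatives adjusted p of 0.36 and 0.422 and limma-voom 0.338 and 0.443.

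**Figure D2:**
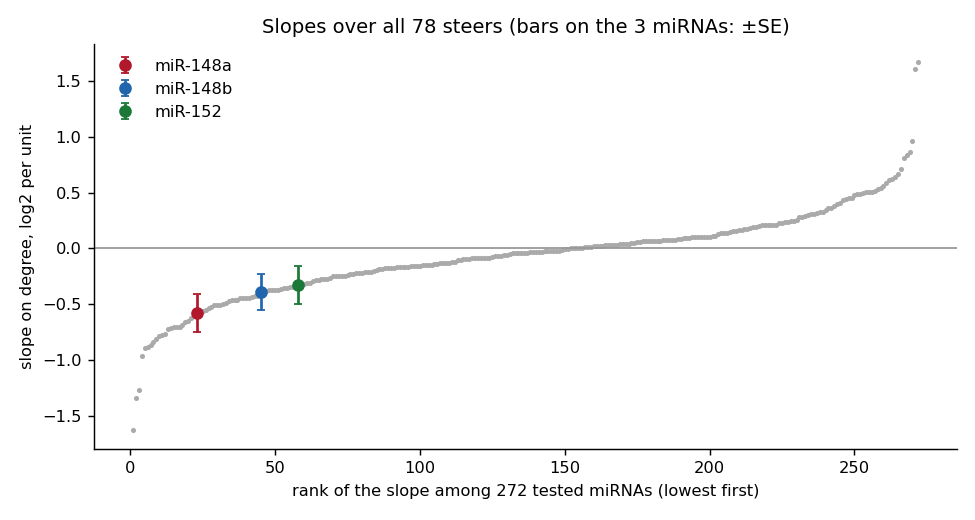
Slope on degree over all 78 steers (y axis, log2 per unit of degree) of the 272 tested miRNAs in order of the slope (x axis, rank). miR-148a, miR-148b and miR-152 (large points, bars ± SE) stand 23rd, 45th and 58th from the lowest, at -0.57, -0.39 and -0.33, and 22 other miRNAs lie lower than miR-148a.

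Normal steers make up 53 of the 78 points of this slope. Within the 25 dark-cutting steers alone it was -0.52 ± 0.36 for miR-148a, with an SE more than 2 times as wide. For miR-148b it was -0.61 ± 0.37 (95% interval -1.36 to 0.14, edgeR adjusted p = 0.998), and for miR-152 -0.21 ± 0.35 (95% interval -0.93 to 0.50, edgeR adjusted p = 0.998). Of 251 miRNAs, 0% passed the adjusted threshold and 3.59% an unadjusted 0.05, neither relative among them, and 61% had a slope below 0. The median slope over these miRNAs was -0.10, and -0.03 with DESeq2 size factors. With the latter the slopes were -0.44 for miR-148a, -0.52 for miR-148b and -0.14 for miR-152. All 3 slopes depended on the steer of degree 3/4: without it they were -0.22 for miR-148a, -0.37 for miR-148b and 0.11 for miR-152. A grading by degree among dark-cutting steers was therefore not detectable for either relative with these 25 steers, and the intervals leave room for slopes as steep as that of miR-148a.

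**Figure D3:**
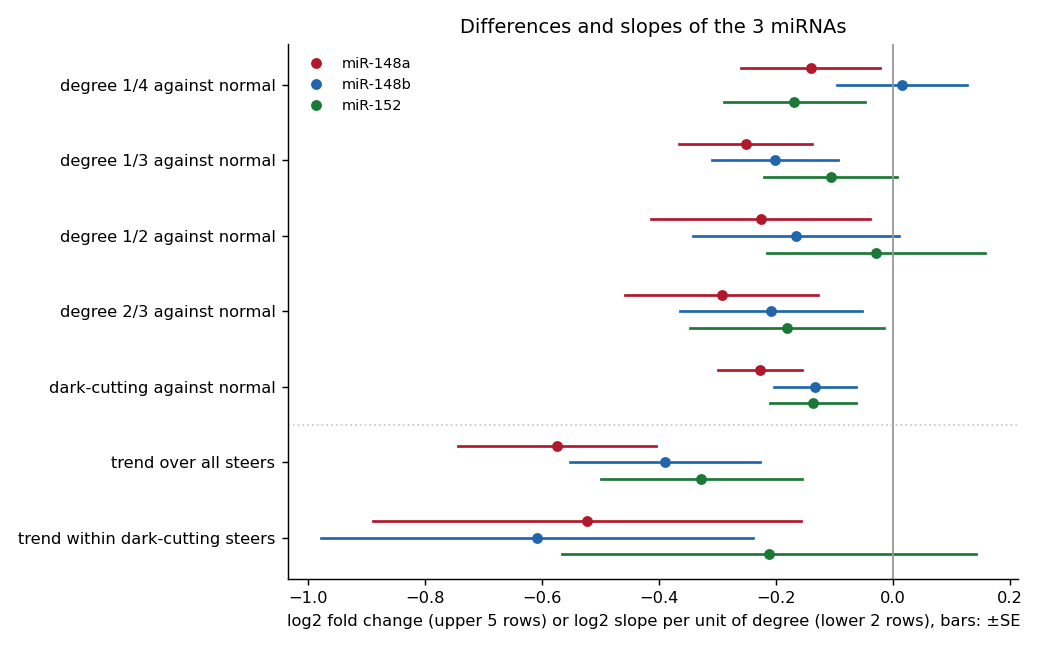
Log2 fold change of each degree and of all dark-cutting steers against normal (upper 5 rows) and log2 slope per unit of degree (lower 2 rows) for miR-148a, miR-148b and miR-152 (x axis; points with bars ± SE). The bars are widest for the slope within the 25 dark-cutting steers, at 0.36 for miR-148a, 0.37 for miR-148b and 0.35 for miR-152, and rows that share steers are not independent.

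In ratios within a library the scaling cancels. The log2 ratio of miR-148b to miR-148a was -2.15 ± 0.26 in dark-cutting steers and -2.25 ± 0.23 in normal ones (SD), a difference of 0.10 ± 0.06 (SE), with a slope on degree of 0.17 ± 0.13. Dark-cutting steers had a log2 ratio of miR-152 to miR-148a of -2.10 ± 0.27 and normal steers one of -2.21 ± 0.30, a difference of 0.11 ± 0.07 (SE), with a slope of 0.27 ± 0.16. Both are descriptions, since they contain miR-148a, and the 95% intervals of both differences include 0 (-0.03 to 0.22 and -0.03 to 0.24). Within dark-cutting steers the slopes of these ratios were -0.11 ± 0.32 and 0.25 ± 0.33, of opposite sign. The ratio of miR-152 to miR-148b, which leaves miR-148a out, was 0.05 ± 0.35 in dark-cutting steers and 0.04 ± 0.36 in normal ones. The difference of 0.01 (95% interval -0.16 to 0.18) was far inside the spread (two-sided permutation test with 100000 resamples, p = 0.906). It was 0.09 (p = 0.453) among title numbers below 600 and -0.02 (p = 0.841) from 600 up by the same permutation test.

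Values were also taken within each title-number range. The log2 fold change of dark-cutting against normal was -0.06 ± 0.12 below 600 and -0.31 ± 0.09 from 600 up for miR-148a, and the slope was -0.13 ± 0.31 and -0.75 ± 0.19 (SE). For miR-148b the fold change was -0.17 ± 0.12 and -0.12 ± 0.08 and the slope -0.46 ± 0.31 and -0.39 ± 0.18. For miR-152 the fold change was -0.07 ± 0.13 and -0.17 ± 0.09 and the slope -0.11 ± 0.33 and -0.42 ± 0.20. The difference between ranges in the slope had an edgeR adjusted p of 0.970 for miR-148b and 0.924 for miR-152. For the fold change the edgeR adjusted p of the difference was 0.978 and 0.977 in the same order. A difference between ranges was thus not shown for either relative. For miR-148a, as a description, the difference was -0.62 ± 0.36 in the slope (SE, 95% interval -1.34 to 0.10). In the fold change it was -0.24 ± 0.15 (95% interval -0.54 to 0.05), and both intervals reach to either side of no difference. The lower range holds only 8 dark-cutting steers.

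Among the 53 normal steers, where degree does not vary and which did not alone choose miR-148a, the family members could be compared with each other. Levels of miR-148a and miR-148b varied together, with r = 0.71 and rho = 0.73 (permutation p = 1e-05 each, the smallest that 100000 resamples can give; adjusted over the 3 pairs 3e-05). Without the 2 steers farthest from the median r was 0.70, and it was 0.71 among the 18 steers below 600 and 0.68 among the 35 from 600 up. For miR-148a and miR-152, r was 0.55 and rho 0.39 (permutation p = 4e-05 and 0.00369; adjusted 6e-05 and 0.00553). That r was 0.40 without the 2 farthest steers, and 0.48 and 0.56 in the lower and higher title-number ranges.

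The relation between the relatives themselves was the weakest. For miR-148b and miR-152, r was 0.31 and rho 0.28 (permutation p = 0.0219 and 0.0453, also after adjustment), with r = 0.29 without the 2 farthest steers. It was 0.58 among the 18 normal steers below 600 and 0.20 among the 35 from 600 up, so the relation in the larger range was weak. In the 25 dark-cutting steers, r was 0.61 for miR-148a with miR-148b, 0.52 for miR-148a with miR-152 and 0.08 for miR-148b with miR-152, given as a description. The levels compared come from the same library and share its scaling. With scaling by total count alone, the 3 values of r in normal steers were 0.83, 0.71 and 0.59. With DESeq2 size factors they were 0.69, 0.50 and 0.25.

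**Figure D4:**
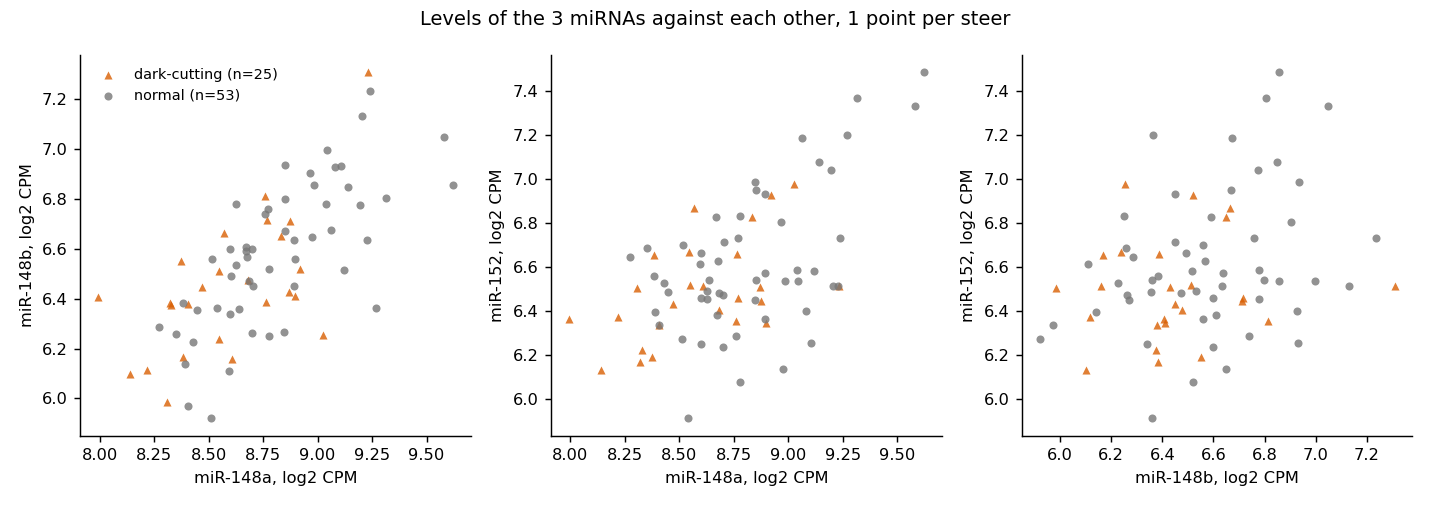
Levels (log2 CPM, both axes) of miR-148b against miR-148a, miR-152 against miR-148a and miR-152 against miR-148b, 1 point per steer (triangles: 25 dark-cutting; circles: 53 normal). The first pair lies closest to a line (r = 0.71 in normal steers) and the last is the most scattered (r = 0.31).

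Set against all other 271 miRNAs over the 78 steers, the levels most like those of miR-148a by Spearman's rho were miR-148b (0.70), miR-16a of the miR-15 and miR-16 family known for cell-cycle targets (0.70), miR-146a, known in human for feedback on NF-kappaB signalling (0.63), miR-379 of the imprinted DLK1-DIO3 region (0.63) and miR-142-5p, a miRNA of blood cells (0.61). miR-152 stood 27th in that order (0.44). Nearest to miR-148b were miR-16a (0.70), miR-148a (0.70), miR-208b, which lies within the slow myosin gene MYH7 (0.67), miR-32 (0.66) and miR-24-3p of the miR-23, miR-27 and miR-24 clusters (0.65). miR-152 stood 55th for it (0.26).

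The levels nearest to those of miR-152 were let-7i of the let-7 family (0.47), miR-379 (0.46), miR-199c (0.45), miR-148a (0.44) and miR-199a-5p, known from fibroblasts (0.41), and miR-148b stood 24th. Its nearest values were thus lower than those of both other members, and only miR-379 and miR-148a recur from their lists. Over all 271, the median rho was -0.01 for miR-148a, -0.02 for miR-148b and 0.02 for miR-152. The order was another in the 25 dark-cutting steers alone, where miR-3613a (0.70), miR-136 (0.69), miR-379 (0.66), miR-411a (0.64) and miR-499 (0.63) were nearest to miR-148a, with miR-148b 8th (0.57) and miR-152 9th (0.55); miR-3613a, miR-136, miR-411a and miR-499 are named here after their values were seen. For miR-148b, miR-148a stood 6th there (0.57) and miR-152 87th (0.14), and for miR-152, miR-148a stood 3rd (0.55). In the 53 normal steers miR-148b stood first for miR-148a (0.73) and miR-152 35th (0.39). These orders are descriptions over libraries that share their scaling.

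Bulk tissue cannot separate fewer cells of a type from less RNA per cell, so levels were set beside summed levels of marker miRNAs of other cell types in the 53 normal steers (24 relations; p from permutation, adjusted over the 24). The white blood cell sum (miR-142-5p, miR-142-3p, miR-223, miR-150, miR-155 and miR-146a) varied with miR-148a at r = 0.67 and rho = 0.68 and with miR-148b at r = 0.68 and rho = 0.63 (adjusted permutation p = 6e-05 for r and 8e-05 for rho in both). Without the 2 farthest steers r was 0.64 and 0.61, and among title numbers below 600 and from 600 up it was 0.65 and 0.63 for miR-148a and 0.72 and 0.62 for miR-148b. For miR-152 it was 0.18 (rho = 0.13, adjusted permutation p = 0.385 and 0.472).

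The endothelial sum (miR-126-3p and miR-126-5p) had r = 0.38 and rho = 0.43 with miR-148a (adjusted permutation p = 0.0133 and 0.0066), r = 0.58 and rho = 0.60 with miR-148b (6e-05 and 8e-05) and r = 0.05 and rho = 0.08 with miR-152 (0.883 and 0.629). Without the 2 farthest steers the first 2 values of r were 0.38 and 0.54, and in the lower and higher title-number ranges 0.42 and 0.37 for miR-148a and 0.65 and 0.54 for miR-148b. The smooth muscle and pericyte sum (miR-143 and miR-145) had r = 0.58 and rho = 0.57 with miR-148a (6e-05 and 0.00012), r = 0.47 and rho = 0.55 with miR-148b (0.0016 and 0.000288) and r = 0.36 and rho = 0.24 with miR-152 (0.0213 and 0.176). Here r was 0.58, 0.64 and 0.26 without the 2 farthest steers, and 0.58 and 0.53, 0.69 and 0.33, and 0.59 and 0.27 in the lower and higher ranges. miR-148a and miR-148b thus varied with the white blood cell and vessel sums, each weighted to its most abundant members. The smooth muscle and pericyte sum is nearly all miR-143, at 14.62 log2 CPM against 7.83 for miR-145. The endothelial sum is mostly miR-126-3p (12.21 against 9.10 for miR-126-5p). In the white blood cell sum the most abundant were miR-146a (6.30) and miR-142-5p (5.54). miR-152 also passed the adjusted threshold with the smooth muscle and pericyte sum, by r and not by rho. Whether the values of r of miR-148a and miR-148b differ from those of miR-152 was not tested.

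miR-152 had its highest r with the fibroblast sum (miR-199a-3p, miR-199a-5p, miR-199b, miR-214 and miR-21-5p), at r = 0.58 and rho = 0.31 (adjusted permutation p = 0.000144 and 0.0751). That relation was 0.41 without the 2 farthest steers and did not hold in both title-number ranges, at -0.38 below 600 and 0.70 from 600 up. For miR-148a r was 0.45 and rho 0.19 (adjusted permutation p = 0.00367 and 0.297), but 0.20 without the 2 farthest steers, -0.32 below 600 and 0.54 from 600 up, so it rested on those steers. For miR-148b it was 0.03. Most of the fibroblast sum is miR-21-5p, at 11.63 log2 CPM against 9.03 for miR-199a-3p, the next most abundant. With the red blood cell sum (miR-451, miR-144 and miR-486), miR-152 had r = -0.37 and rho = -0.33 (adjusted permutation p = 0.0213 and 0.0544), -0.44 without the 2 farthest steers and -0.28 and -0.38 in the ranges. For miR-148a r was -0.13, but -0.41 without the 2 farthest steers and -0.50 and -0.07 in the ranges. For miR-148b it was -0.03, then -0.24, and -0.63 and 0.15 in the ranges. Most of this sum is miR-486, at 9.12 log2 CPM against 7.37 for miR-451 and 3.11 for miR-144. Total count, the share of miR-1 and the muscle-fibre sum had no relation with any of the 3 past the adjusted threshold. As that sum is nearly all miR-1, it does not speak for less abundant fibre miRNAs such as miR-208b. For the miR-1 share, r below 600 was -0.52 for miR-148a, -0.66 for miR-148b and -0.41 for miR-152. From 600 up these values were 0.13, 0.01 and 0.08, and neither range was tested alone.

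**Figure D5:**
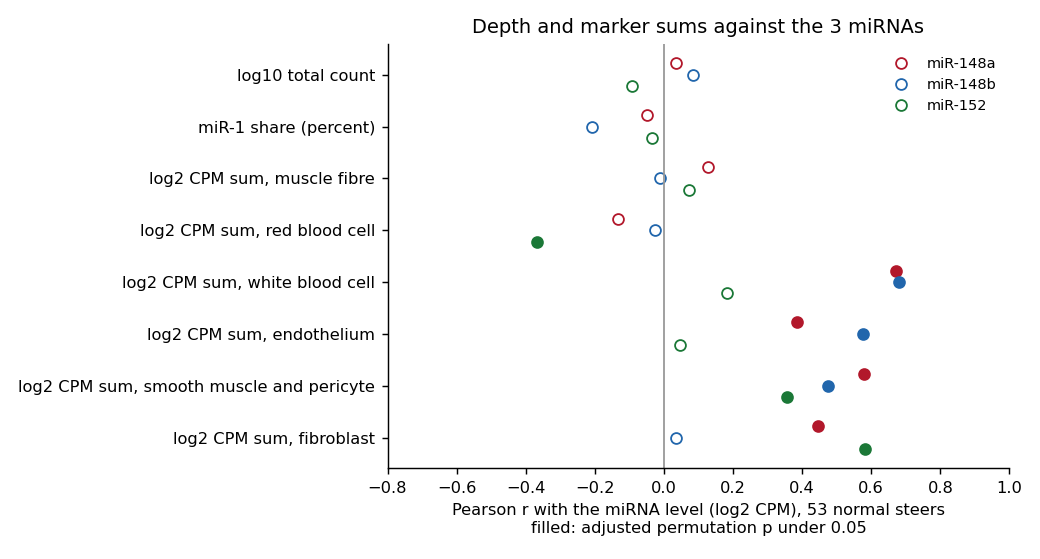
Pearson r in the 53 normal steers (x axis) between the level of miR-148a, miR-148b or miR-152 and total count, miR-1 share and 6 marker sums (rows); filled points have an adjusted permutation p under 0.05. The points of miR-148a and miR-148b are highest for the white blood cell sum (0.67 and 0.68), where that of miR-152 is 0.18.

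The white blood cell list itself was at 7.06 ± 0.44 log2 CPM in dark-cutting and 7.37 ± 0.55 in normal steers (SD). Its sum ran from 76.2 to 264 CPM of all counts in dark-cutting and from 72.8 to 391 in normal steers, none of its 6 members was at 0, and 6 of 6 had a fold change and 6 of 6 a slope below 0, against 54% and 55.5% of all miRNAs. 0 of the 6 passed the adjusted threshold in edgeR, DESeq2 or limma-voom, and 2 had an unadjusted p under 0.05 for the fold change and 2 for the slope, against 9.13% and 11% of all. miR-142-5p had a log2 fold change of -0.38 ± 0.13 (edgeR adjusted p = 0.277) and miR-146a of -0.42 ± 0.16 (edgeR adjusted p = 0.295). The smooth muscle and pericyte sum was 14.39 ± 0.47 log2 CPM in dark-cutting steers and 14.61 ± 0.50 in normal ones, with 1 of its 2 members below 0 and none called by the 3 tools or under an unadjusted 0.05 in that comparison.

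With the white blood cell sum as a covariate, chosen after these relations were seen, the log2 fold change of dark-cutting against normal was -0.11 ± 0.06 for miR-148a, -0.03 ± 0.06 for miR-148b (edgeR adjusted p = 0.905) and -0.10 ± 0.07 for miR-152 (edgeR adjusted p = 0.738). The slope over all steers was -0.31 ± 0.14 for miR-148a, -0.15 ± 0.13 for miR-148b (edgeR adjusted p = 0.669) and -0.23 ± 0.17 for miR-152 (edgeR adjusted p = 0.660). Within dark-cutting steers it was -0.46 ± 0.34, -0.56 ± 0.32 and -0.18 ± 0.34. For all 3 miRNAs the values over all steers were closer to 0 than without the covariate, and those within dark-cutting steers moved by less than 0.1. The part of white blood cells in the lower level of miR-148a was not tested.

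Where libraries were scaled by their totals alone, the median over all miRNAs was 0.10 in place of -0.01 for the fold change and 0.19 in place of -0.04 for the slope. On that scale the fold changes were -0.15 for miR-148a, -0.05 for miR-148b and -0.04 for miR-152, and the slopes -0.35, -0.18 and -0.09. All 6 values kept their sign and each stayed under the shifted median.

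Other miRNAs of the processes named for the family were compared through lists chosen with earlier results of these data known. Over all 272 miRNAs, 55.5% had a slope below 0, the median was -0.04, and 11% had an unadjusted p under 0.05 (8.46% with a slope below 0). Of 19 miRNAs known from myogenic differentiation, 13 had a slope below 0, with a median of -0.12. None of them was called in edgeR or limma-voom, 2 lower and 1 higher had an unadjusted p under 0.05, and DESeq2 called 1, miR-206, which was higher with degree (0.45 ± 0.13, edgeR adjusted p = 0.0739) and is named here after its value was seen. The most abundant were miR-1 (-0.31 ± 0.17, edgeR adjusted p = 0.436), miR-133a (-0.15 ± 0.20, 0.814), which with miR-1 is a muscle-specific miRNA, and miR-26a (-0.09 ± 0.11, 0.802).

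Of 15 miRNAs known from lipid and cholesterol metabolism, 12 were tested and 7 had a slope below 0, with a median of -0.06. The 3 tools called none, and 2 had an unadjusted p under 0.05, both lower. miR-27b had 0.08 ± 0.11 (edgeR adjusted p = 0.836), miR-27a-3p -0.03 ± 0.22 (0.981) and miR-30c -0.15 ± 0.15 (0.716). Of 7 miRNAs that, like this family in human cells, are known to be directed at DNA methyltransferases, 6 had a slope below 0, with a median of -0.21. The 3 tools called none, and 3 had an unadjusted p under 0.05, all lower. The most abundant were miR-143 (-0.59 ± 0.27, edgeR adjusted p = 0.355), which also stands in the smooth muscle list, miR-101 (-0.16 ± 0.16, 0.743) and miR-29a (-0.21 ± 0.12, 0.436). The slopes of miR-148b and miR-152 were lower than the median of each of the 3 lists.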

How the data were processed

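Per the labels' protocols, libraries of 78 biopsies were prepared from total RNA using the NEXTflex kit for small RNA. Trimmomatic 0.32, FastQC and DESeq2 1.34.0 are named in the submitters' processing notes. For the aligner, counter, miRNA annotation and build, no name or version was found (not given in the sources used here), and no positions are printed. Mature sequences were not used here, so seeds rest on general knowledge.

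The matrix deposited by the authors holds raw read counts per mature miRNA and steer, per the file headers. Another table, also deposited, gives the authors' mean normalized signal, log2 fold change with its standard error, Wald score, p-value and adjusted p-value. It names no contrast, but a DESeq2 refit of dark-cutting against normal gave the scores of its 542 rows within 7.55e-08.

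Groups follow the phenotype label. The test was that of edgeR 4.0.16 in R 4.3.3 (TMM, robust quasi-likelihood F test, Benjamini-Hochberg over all miRNAs, threshold 0.05). The filter was a minimum count of 10 by filterByExpr (252 miRNAs), or 10 counts' equivalent in at least 8 libraries and 15 in all for the degrees (272 miRNAs; 251 within dark-cutting steers). DESeq2 1.42.0 and limma 3.58.1 were alternatives, and tests were checked on simulated counts. The changes planted there were larger than those of the family, so the check does not show whether changes of the family's size could be found. Ratios added a pseudocount of 1 to counts. Libraries were checked for near copies and none was found (over 3003 pairs, chi-square divided by its degrees of freedom was at least 9.43). In the table, 21 rows repeat an earlier row, none of them of the family, but reads of near-identical miRNAs could have been split between rows by the authors' counting.

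The members, lists and tests were chosen with earlier results of these data known. The rule for naming miRNAs takes the 3 members, the 5 nearest to each by Spearman's rho, miR-1 and from each list the 3 tested miRNAs of highest abundance. It also takes rows sharing the seed in a sequence table, a step not applied here.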

Additional observations from a re-analysis of the deposited data

Results flagged for a closer look

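Groups of 4 to 10 steers were checked for a steer apart from the rest, by the gap to its nearest neighbour as a share of the range (Dixon's 95% critical value). Degrees 1/4, 1/3 and 2/3 were checked for 6 quantities each, the 3 levels and their 3 ratios, which makes 18 checks that overlap. In 3 of them a steer stood apart, where chance gives about 1 in 20 for a single check. At degree 1/4, replicate 4 had 7.31 log2 CPM of miR-148b, above the other 7 steers, and replicate 3 had 6.98 log2 CPM of miR-152, also the highest of its group. At degree 2/3, replicate 2 had 6.36 log2 CPM of miR-152, under the other 3 steers, which lay between 6.51 and 6.52. miR-148a had no such steer in any degree.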

How the results depend on the processing

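Each miRNA had 77 alternative values, from another scaling, filter, tool, covariate or degree scale, or with steers left out. Of the fits with each steer left out in turn, only the lowest and highest value per comparison are among them. miR-148a kept its direction in 77, miR-148b in 76 and miR-152 in 72, and neither relative passed the adjusted threshold in any. Among these values, the slope over all steers ranged from -0.69 to -0.31 for miR-148a, from -0.49 to -0.15 for miR-148b (adjusted p 0.143 to 0.695) and from -0.39 to -0.09 for miR-152 (0.393 to 0.856). Values that changed sign were those of miR-148b at degree 1/4 (-0.12 to 0.061 with 1 steer left out), of miR-152 at degree 1/2 (0.13 by total count and -0.21 to 0.13 with 1 steer left out), of miR-152 at degree 1/3 (0.032 by total count), of the miR-152 slope within dark-cutting steers (-0.28 to 0.11 with 1 steer left out, the last without that of degree 3/4) and of the ratio of miR-152 to miR-148b from title number 600 up (-0.023). The cause was not tested.

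Calls among all miRNAs, none of them a relative, were 2 in place of 0 for dark-cutting against normal without the filter. For the slope, in place of 1, they were 3 with DESeq2 size factors, total count, no filter or DESeq2, 2 with the white blood cell covariate, 0 with limma-voom or without degree 2/3, and 0 to 3 with 1 steer left out. At degree 2/3 they were 0 with replicate 1 left out, against 1 with all steers. No paired analysis was possible because replicate numbers follow accession order and pair no steers. The single steer of degree 3/4 and the 3 and 4 steers of degrees 1/2 and 2/3 limit what the slopes can show.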

Other observations

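One normal steer, replicate 53, held the highest level of both miR-148a (787 CPM) and miR-152 (179 CPM) among all 78, while its miR-148b was 115 CPM, inside the range of the other normal steers. The family took 0.155% of its counts, against a median of 0.0657% over the normal steers. The lowest miR-148b (59.9 CPM) and the lowest miR-152 (59.7 CPM) also belonged to normal steers, replicates 4 and 34, whereas the lowest miR-148a (254 CPM) belonged to replicate 1 of degree 1/4.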
